A study of Mus musculus with 12 samples.

Results

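Keratinocytes, the epithelial cells that build the epidermis, were compared with Pdgfra-positive adipose-derived stromal cells (ADSCs), fibroblast-like cells of subcutaneous fat, by RNA sequencing of primary cultures. The comparison used the 6 of 12 libraries whose labels name these groups, 3 per group, and 12364 of the 24537 genes in the deposited table: those with at least 1 FPKM (fragments per kilobase of transcript, scaled to library depth) in at least 3 of the 12 libraries. The ADSCs were cultured from subcutaneous adipose tissue in DMEM with 10% fetal bovine serum, and the keratinocytes from back skin in a keratinocyte medium without serum. All mice were of the strain Pdgfra-creERxLSL-tdTomato, which carries a Cre recombinase, active after tamoxifen and driven by Pdgfra, together with a red fluorescent reporter that Cre switches on. The labels give mouse numbers 1, 2 and 3 in both groups, so each animal gave a culture of each kind, and 3 animals were used in all. Age, sex and tamoxifen treatment are not given in the labels used here. The tissue, the medium and the cell type change together and cannot be told apart in this comparison. The other 6 libraries, of cells converted from ADSCs to epithelial cells, entered only the filter and the estimate of spread.

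Keratinocytes grow as sheets: each cell has an upper and a lower face, proteins are sorted to one face or the other, and neighbours adhere over their whole sides. Stromal cells of fat lie singly in a collagen matrix that they secrete, assemble and pull on, and they send growth factors to the epithelia and vessels near them. Large gene families often hold members that epithelia use and others that stroma uses, and some signalling pairs have the ligand in the stroma and the receptor in the epithelium. The families and pathways described here lie outside the keratins and collagens.

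Each library held between 24600000 and 27770000 reads in the genes of the table, and 10980 to 11349 genes reached 1 FPKM. The labels were checked on Krt14, the keratin of basal keratinocytes, at 5.75, 4.9 and 6.15 FPKM in ADSCs and 10775, 11407 and 11929 in keratinocytes, and on Pdgfra, a growth factor receptor of stromal cells, at 46, 23.4 and 22.8 FPKM in ADSCs and 0.917, 0.908 and 0.68 in keratinocytes. The 10 keratinocyte markers summed to between 21160 and 23110 FPKM in keratinocytes and to between 12.5 and 13.9 in ADSCs, where 2 or 3 of the 10 reached 1 FPKM. The 10 stromal markers summed to between 8873 and 11290 FPKM in ADSCs and to between 43.3 and 53.1 in keratinocytes. In the keratinocyte libraries of mice 1, 2 and 3, 7, 7 and 6 of these 10 still reached 1 FPKM. Immune markers summed to 72.06 FPKM in the ADSCs of mouse 2, chiefly from the macrophage gene Lyz2, against 7.995 and 12.58 in the other ADSC cultures and 2.711 to 4.299 in keratinocytes. Of the other cell types that skin and fat hold, markers of glia and Merkel cells summed to at most 8.453 FPKM, of endothelial cells and pericytes to at most 9.316, and of melanocytes to at most 4.835. The 8 adipocyte markers summed to between 39.5 and 69.32 FPKM in ADSCs and to between 15.94 and 50.25 in keratinocytes, and 4 to 6 of the 8 were at 0 in each library. The 10 markers of skeletal muscle and red cells summed to between 29.61 and 73.16 FPKM in ADSCs and to between 83.61 and 101.2 in keratinocytes, with 7 or 8 of the 10 at 0 in each library. In such bulk samples, fewer cells of a type and less RNA per cell cannot be told apart.

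Genes were tested with limma on log2(FPKM + 1) and called at an adjusted p below 0.05. At that threshold 6616 genes were called, 53.5% of those tested: 4061 were higher in keratinocytes (32.8%) and 2555 lower (20.7%). A share of called members is read against these figures throughout. Means are given ± SD (n = 3 libraries per group), and values of single libraries in the order of mouse 1, 2 and 3. Folds are ratios of mean FPKM. Log2 differences are keratinocytes minus ADSCs on the log2(FPKM + 1) scale, on which genes of low level show too small a change. The 3 libraries of each group did not overlap in FPKM for 8592 genes (69.5%), of which 5388 were higher in keratinocytes. Of all calls 61.4% were higher in keratinocytes, against 46.8% when each library was centred on its median and 50.5% after quantile normalization. The median log2 difference over all genes was 0.184, and centring on the median moved it to -0.007, so small differences depend on the scaling. Differences of at least 1 on the log2 scale were called for 1816 higher and 1585 lower genes, 27.5% of those tested. The ratio of mean FPKM exceeded 10 for 717 higher and 711 lower genes, and 100 for 347 and 223.

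Outside the keratin and collagen families, the called genes with the largest rises in keratinocytes included Perp, Lgals7, Ly6d, Clu, S100a14, Cldn4, Sfn, Serpinb5 and Dmkn. Perp encodes a desmosome-associated membrane protein and was at 2107, 2463 and 2185 FPKM in keratinocytes and 2.35, 1.53 and 1.13 in ADSCs (log2 difference 9.74, SE 0.24, adjusted p = 1.95e-10). Sfn, the epithelial 14-3-3 protein, was at 766, 734 and 808 FPKM in keratinocytes and 1.13, 1.37 and 1.58 in ADSCs, and Cldn4, a claudin of tight junctions, at 442, 462 and 427 FPKM in keratinocytes and 0.26, 0.151 and 0.238 in ADSCs. Both separated the groups in every library (log2 differences 8.35, SE 0.19, and 8.51, SE 0.68). The largest falls were those of Postn, Lox, Mfap5, Thbs2, Thy1, Loxl2, Sfrp1, Fstl1, Fbn1 and Lrrc32. Fbn1, the main protein of extracellular microfibrils, was at 345, 278 and 288 FPKM in ADSCs and 0.651, 0.682 and 0.453 in keratinocytes (log2 difference -7.57, SE 0.35, adjusted p = 1.83e-08). Loxl2, which like Lox crosslinks collagen and elastin, was at 159, 241 and 255 FPKM in ADSCs and 0.064, 0.094 and 0.077 in keratinocytes, and Thbs2, a matrix protein of the thrombospondin family, at 745, 946 and 827 FPKM in ADSCs and 2.85, 3 and 2.06 in keratinocytes. All 3 were above 100 FPKM in every ADSC culture and at most 3 FPKM in every keratinocyte culture.

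**Figure D1:**
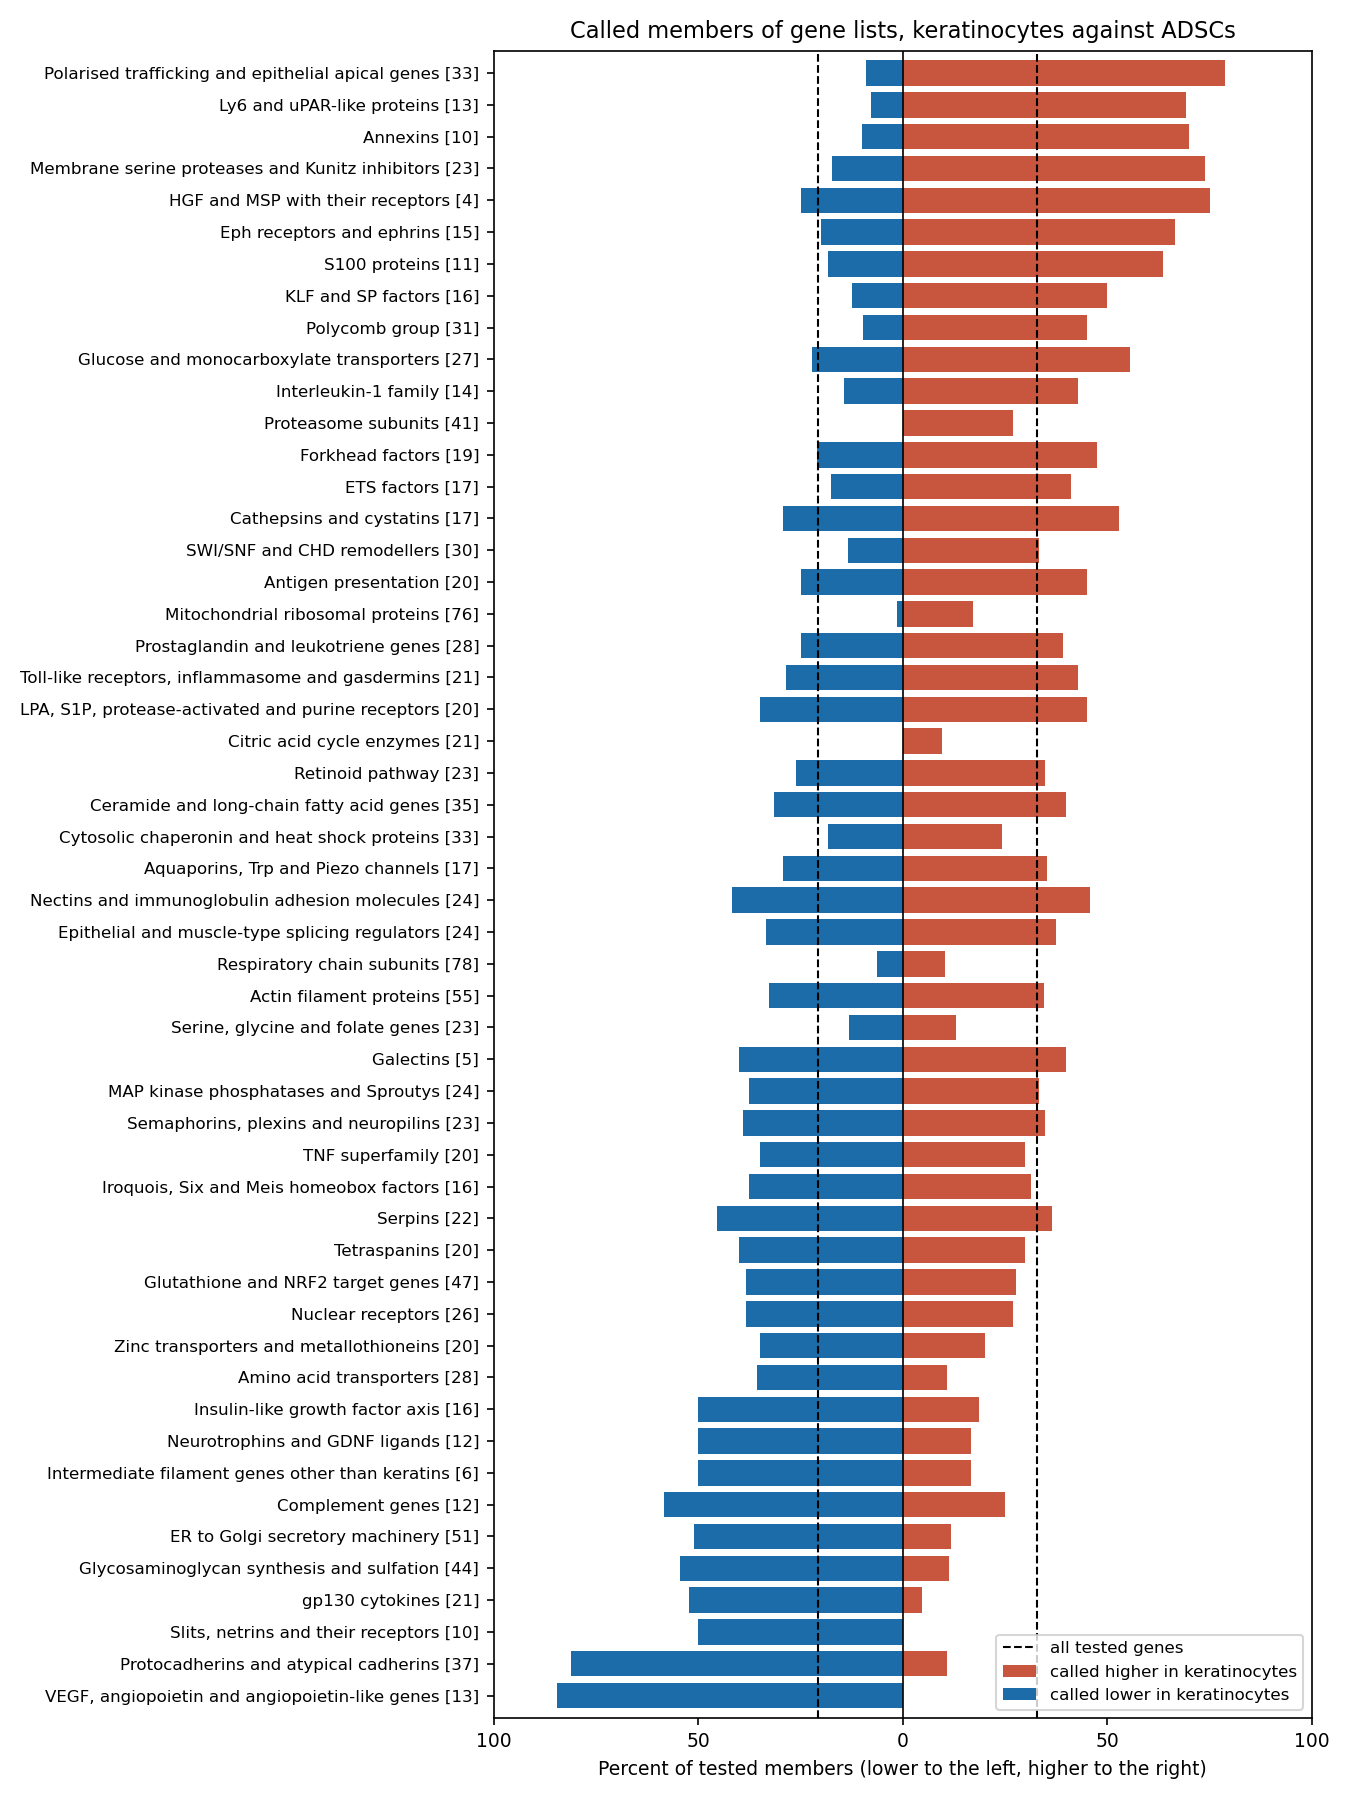
Percent of the tested members of each of 52 gene lists that were called higher (bars to the right) or lower (bars to the left) in keratinocytes than in ADSCs, ordered by the difference of both shares, with the number of tested members in brackets. Dashed lines mark the shares over all tested genes (32.8% higher and 20.7% lower). Polarised trafficking genes stand at the top with 26 of 33 members higher, and the VEGF list at the bottom with 11 of 13 lower.

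Most genes for sorting membrane cargo to one face of a cell were higher in keratinocytes. Of 33 tested genes of polarised trafficking and of the epithelial apical surface, 26 were called higher and 3 lower, with a median log2 difference of 2.13 against 0.184 over all genes. Under median scaling 5 were lower. Rab25, a small GTPase that recycles endosomes in epithelial cells, was at 62.5, 70.9 and 74.8 FPKM in keratinocytes and 0.06, 0 and 0.102 in ADSCs (log2 difference 6.06, SE 0.17, adjusted p = 3.6e-10). Ap1m2, the medium subunit of the epithelial form of the AP-1 clathrin adaptor, was at 54.8, 51 and 53.6 FPKM in keratinocytes and 0.055, 0 and 0 in ADSCs, which left almost no reads in ADSCs. Cdcp1, a transmembrane glycoprotein phosphorylated by Src kinases, was at 82.9, 82.7 and 88.8 FPKM in keratinocytes and 0.041, 0.027 and 0.019 in ADSCs (log2 difference 6.38, SE 0.17, adjusted p = 2.48e-10). For each of these 3 genes the lowest keratinocyte library exceeded the highest ADSC library by a wide margin. Pard6g, a member of the PAR polarity complex, differed 17-fold (139 ± 1.34 FPKM in keratinocytes against 8.19 ± 0.952 in ADSCs; adjusted p = 3.53e-09). Llgl2, which marks the basolateral face, differed 10.4-fold (16.3 ± 0.747 FPKM in keratinocytes against 1.57 ± 0.263 in ADSCs; adjusted p = 1.36e-08). Sytl2, which like the higher member Sytl1 tethers vesicles through Rab27, went the other way: it was at 7.15, 7.59 and 5.13 FPKM in ADSCs and 0.171, 0.044 and 0.014 in keratinocytes (log2 difference -2.81, SE 0.14, adjusted p = 3.95e-08). Marveld1 was lower as well, by a smaller margin (25.8 ± 1.68 FPKM in ADSCs and 13.6 ± 0.573 in keratinocytes; log2 difference -0.88, adjusted p = 0.000101).

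The promoters of 4 of these genes are shown, since the members moved together and the first 3 share a short motif that the fourth lacks. They had the largest rises among genes with a promoter in the RefSeq table (GRCm38.p6) and a group mean of at least 5 FPKM. Genes of a single chromosome were left out of this choice. Each window runs from 250 bases before to 50 bases after the gene's start and is printed 5′ to 3′ on the gene's strand. All 4 genes lie on the minus strand. Capitals mark every match, on either strand, of CACCTG (an E-box that Snail and Zeb factors bind) and AACCNGTT (the core motif of grainyhead-like factors), with N any base. No match overlaps another. The windows are chr9:123215989-123216288 for Cdcp1, chr3:88548230-88548529 for Rab25, chr9:21312284-21312583 for Ap1m2 and chr4:133263038-133263337 for Sytl1.
Cdcp1: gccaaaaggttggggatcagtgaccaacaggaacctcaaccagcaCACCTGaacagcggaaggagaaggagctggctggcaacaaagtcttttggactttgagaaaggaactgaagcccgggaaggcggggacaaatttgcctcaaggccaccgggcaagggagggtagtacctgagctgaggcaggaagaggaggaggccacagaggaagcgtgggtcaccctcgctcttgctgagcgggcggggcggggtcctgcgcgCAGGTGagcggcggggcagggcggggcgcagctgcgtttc
Rab25: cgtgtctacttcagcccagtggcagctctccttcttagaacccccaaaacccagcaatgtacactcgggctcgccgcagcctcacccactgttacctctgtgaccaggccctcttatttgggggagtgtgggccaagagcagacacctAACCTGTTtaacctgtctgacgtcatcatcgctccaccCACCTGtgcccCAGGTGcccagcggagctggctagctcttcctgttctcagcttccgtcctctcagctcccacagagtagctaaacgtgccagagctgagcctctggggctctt
Ap1m2: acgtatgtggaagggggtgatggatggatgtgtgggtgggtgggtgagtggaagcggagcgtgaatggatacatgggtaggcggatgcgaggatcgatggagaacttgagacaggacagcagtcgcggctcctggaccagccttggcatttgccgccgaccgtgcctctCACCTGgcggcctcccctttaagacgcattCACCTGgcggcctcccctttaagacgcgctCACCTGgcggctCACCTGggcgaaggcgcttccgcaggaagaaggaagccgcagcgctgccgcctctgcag
Sytl1: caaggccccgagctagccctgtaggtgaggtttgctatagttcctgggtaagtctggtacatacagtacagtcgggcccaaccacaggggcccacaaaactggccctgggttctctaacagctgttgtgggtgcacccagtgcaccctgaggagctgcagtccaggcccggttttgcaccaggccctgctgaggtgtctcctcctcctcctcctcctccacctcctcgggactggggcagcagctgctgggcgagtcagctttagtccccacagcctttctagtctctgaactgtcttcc

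CACCTG stood 2 times in the Cdcp1 window, 2 times in that of Rab25, 4 times in that of Ap1m2 and not in that of Sytl1, and AACCNGTT stood once, in that of Rab25. Of the 26 trafficking genes called higher, 17 had a promoter in the table, and 8 of the 17 held CACCTG (47.1%). Among all 27018 genes of the table the share was 22.6%, and among tested genes it was 25.4% of 3065 called higher, 19.3% of 1889 called lower and 17.5% of 4364 not called. Windows of tested genes differed little in base composition, with a median of 61% G and C in called genes of either direction and 60.8% in genes not called. The median was 59.5% in the 17 trafficking genes and 52.7% over all genes of the table. The share over all genes thus comes from windows poorer in G and C. AACCNGTT stood in 1 of the 17 (5.88%) against 2.35% of all genes and 2.48% of tested genes called higher. The other motifs searched on both strands were TGANTCA, which AP-1 binds, and GGAATG, which TEAD factors bind. The first was in none of the 17, in 8.98% of all genes and in 7.8% of tested genes called higher. The second was in 4 of the 17 (23.5%), in 16.6% of all genes and in 14.1% of tested genes called higher. A match describes the letters of the window and is not evidence of a bound site.

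Regulators of alternative splicing divided between the groups. Of 24 tested regulators of the epithelial and the muscle or mesenchymal kind, 9 were called higher and 8 lower in keratinocytes. Under median scaling and after quantile normalization 5 were higher. Esrp1 and Esrp2, the epithelial splicing regulatory proteins, were both higher. Esrp1 was at 44.5, 39.6 and 40.3 FPKM in keratinocytes and 0.026, 0.102 and 0.039 in ADSCs (log2 difference 5.33, SE 0.16, adjusted p = 5.86e-10), and Esrp2 differed 12.7-fold (30.1 ± 4.13 FPKM in keratinocytes against 2.38 ± 0.716 in ADSCs; adjusted p = 4.24e-08). Mbnl3, a muscleblind protein, was higher too, 26.7-fold (29.5 ± 1.65 FPKM in keratinocytes against 1.1 ± 0.105 in ADSCs). Among the lower genes, Khdrbs3, a STAR-family RNA-binding protein, was at 15.3, 25.7 and 32.4 FPKM in ADSCs and 0.881, 2.08 and 1.94 in keratinocytes and differed 15-fold (log2 difference -3.25, SE 0.28, adjusted p = 2.61e-06). Celf2, a CELF-family regulator, was at 8.04 ± 0.958 FPKM in ADSCs and 2 ± 0.436 in keratinocytes (adjusted p = 0.000855). Mbnl2, a relative of Mbnl3, was at 83.8 ± 7.26 FPKM in ADSCs and 38.5 ± 3.94 in keratinocytes (adjusted p = 8.11e-06), so these 2 muscleblind genes differed in opposite directions.

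**Figure D2:**
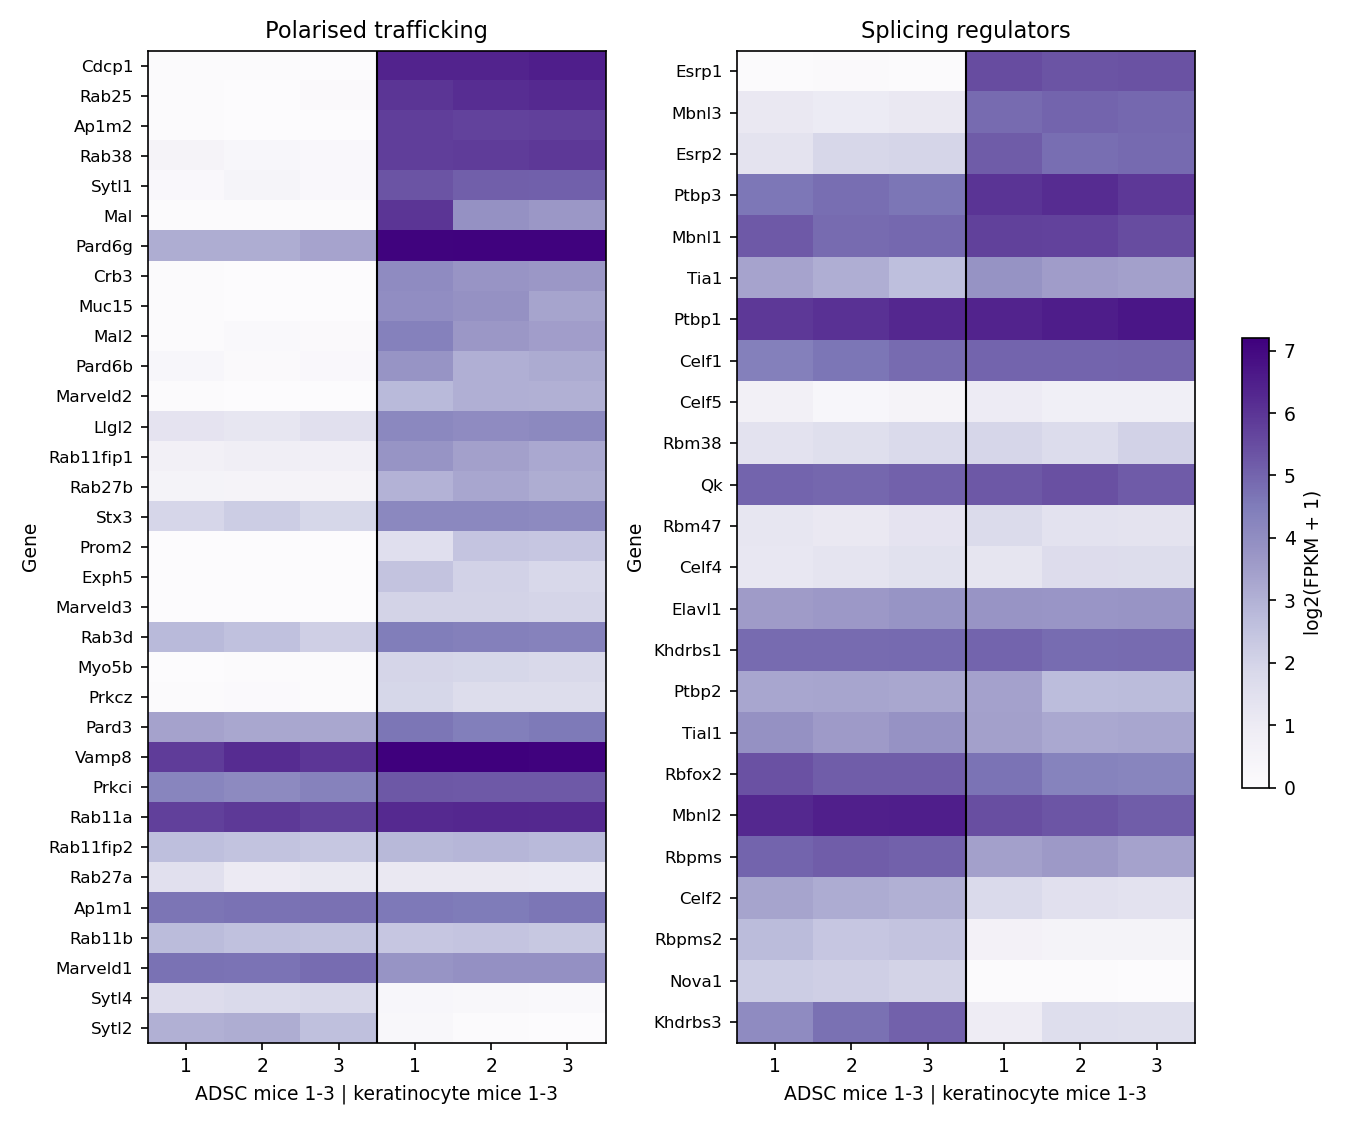
Log2(FPKM + 1) of every tested member of the polarised trafficking list (left) and of the splicing regulator list (right) in each of the 6 libraries, 1 row per gene, ordered by the difference between the group means. Colour runs from 0 (light) to the highest value (dark). The upper rows are light in the 3 ADSC columns and dark in the 3 keratinocyte columns, and in the few lowest rows the order is reversed.

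Calcium-binding and sugar-binding families held opposite members. Among galectins, which bind galactose-containing sugars, Lgals1 was at 2638, 3672 and 2910.3 FPKM in ADSCs and 218, 160.1 and 151 in keratinocytes and thus 17.4-fold lower in keratinocytes (log2 difference -4.12, SE 0.62, adjusted p = 0.000191). Lgals7, the galectin of stratified epithelia, was at 588, 1192 and 1166 FPKM in keratinocytes and 0.796, 0.806 and 0.969 in ADSCs (log2 difference 8.98, SE 0.73, adjusted p = 1.63e-06). Among the keratinocyte cultures that of mouse 1 was the lowest in Lgals7 and the highest in Lgals1, and neither gene overlapped between groups. Lgals3 was higher by 4.03-fold (307 ± 33.4 FPKM in keratinocytes against 76.2 ± 18.1 in ADSCs; adjusted p = 0.00029). In all, 2 of 5 tested galectins were higher and 2 lower. The second lower call, Lgals8, was small (log2 difference -0.43, adjusted p = 0.0423) and was lost without ADSC replicate 1 or 2 or without keratinocyte replicate 2 or 3, which left 1 lower galectin in each case.

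S100 proteins, small calcium sensors, were called higher in 7 of 11 cases and lower in 2, with a median log2 difference of 2.12. S100a4, long known as a fibroblast gene, was at 1098, 917 and 1459 FPKM in ADSCs and 42.9, 56.4 and 43.4 in keratinocytes, 24.4-fold lower in keratinocytes (adjusted p = 4.64e-06). S100a14 was at 474, 552 and 584 FPKM in keratinocytes and 0.468, 0.476 and 0.434 in ADSCs (log2 difference 8.52, SE 0.21, adjusted p = 1.65e-10). S100a8, one partner of the inflammatory dimer calprotectin, was listed at 0 in all 3 ADSC cultures and at 49.7, 87.2 and 64.6 FPKM in keratinocytes. Its partner S100a9 was likewise listed at 0 in ADSCs and at 28.2, 40.8 and 36.5 FPKM in keratinocytes. Of the annexins, which bind membrane phospholipids when calcium is present, 7 of 10 were higher and 1 was lower. Anxa8 was at 625, 630.4 and 559 FPKM in keratinocytes and 21.4, 10.9 and 7.75 in ADSCs, or 45.2-fold higher (adjusted p = 1.01e-07), and Anxa6, the lower one, at 169.8, 181 and 214 FPKM in ADSCs and 11.3, 12.6 and 14.2 in keratinocytes, 14.8-fold in the other direction (adjusted p = 3.46e-06). Anxa1, an abundant annexin with anti-inflammatory activity, differed 6.35-fold (4054 ± 257 FPKM in keratinocytes against 638 ± 156 in ADSCs).

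Serpins, most of which block serine proteases, were called in both directions. The 22 tested serpins held 8 higher and 10 lower calls. Without keratinocyte replicate 1 there were 5 higher calls, and without keratinocyte replicate 2 or replicate 3 there were 6 lower ones. Clade B members of the epidermis led the rises: Serpinb5 (maspin) was at 379, 384 and 375 FPKM in keratinocytes and 0.123, 0.32 and 0.14 in ADSCs (log2 difference 8.32, SE 0.23, adjusted p = 3.43e-10), and Serpinb2 (plasminogen activator inhibitor 2) at 238, 443 and 404 FPKM in keratinocytes and 0.591, 0.399 and 0.894 in ADSCs (log2 difference 7.76, SE 0.24, adjusted p = 7.87e-10). Serpinf1, the secreted antiangiogenic factor PEDF, was at 1051, 1262 and 1276 FPKM in ADSCs and 8.61, 8.53 and 6.63 in keratinocytes, 151-fold lower (adjusted p = 1.09e-07). Serpinh1, the collagen chaperone HSP47, was 5.95-fold lower (1611 ± 159.8 FPKM in ADSCs and 271 ± 11.8 in keratinocytes). Serping1, the C1 inhibitor, was at 30.9 ± 12.1 FPKM in ADSCs and 0.0987 ± 0.0277 in keratinocytes.

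**Figure D3:**
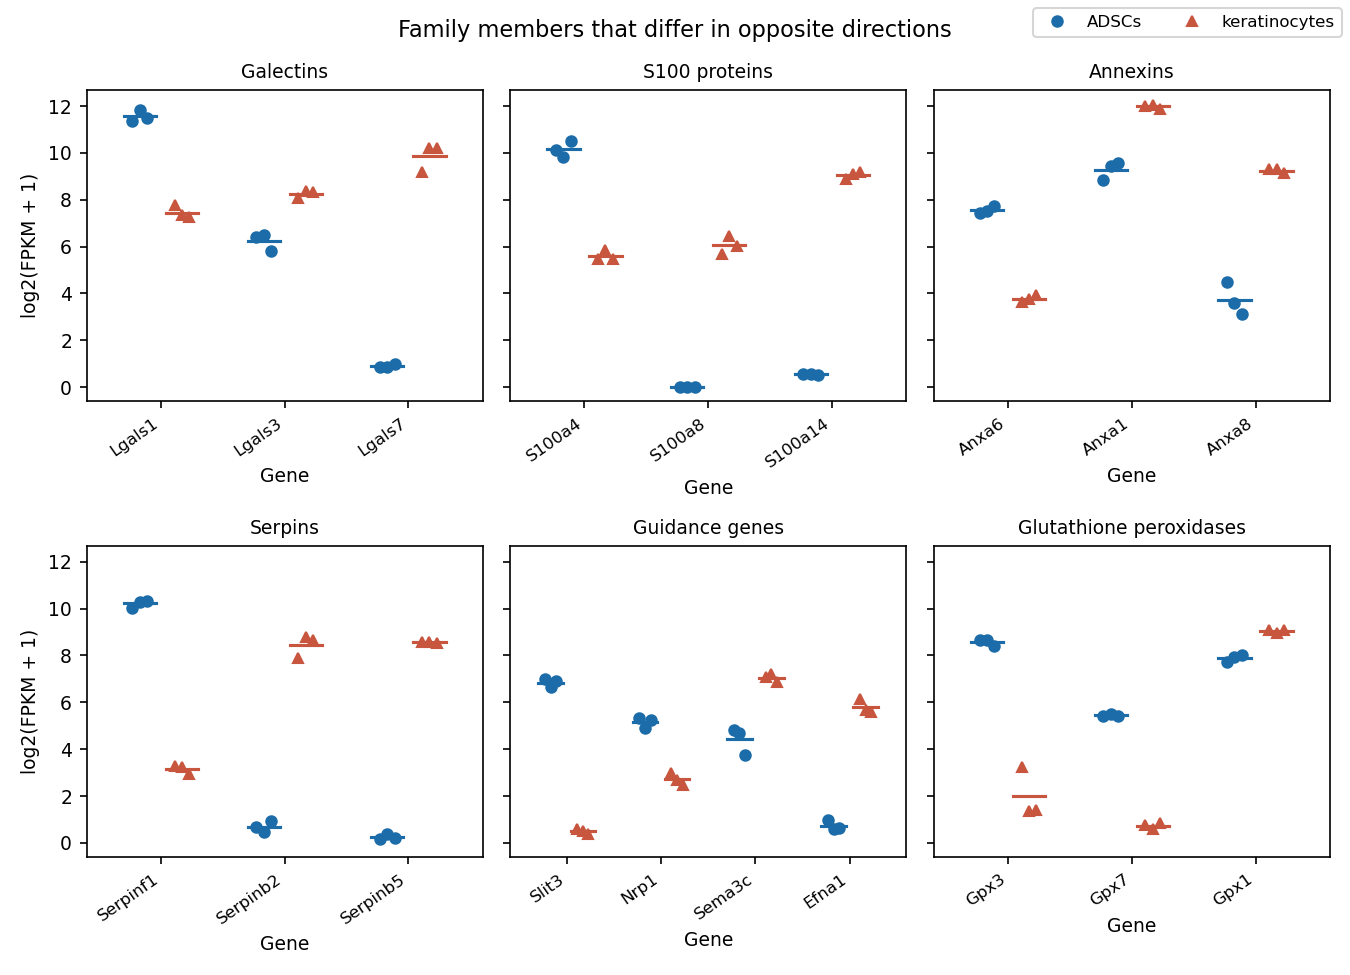
Log2(FPKM + 1) of family members that differ in opposite directions, 1 point per library (circles ADSCs, triangles keratinocytes; n = 3 each) and a line at each group mean, for galectins, S100 proteins, annexins, serpins, guidance genes and glutathione peroxidases. The genes of each panel were picked to show both directions, and the guidance genes come from several families. In every panel at least 1 gene has all circles above all triangles and at least 1 the reverse. Of all tested genes, 69.5% did not overlap between the groups.

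Proteases of the epithelial surface and their inhibitors differed together. Of 23 tested membrane serine proteases and Kunitz-type or related inhibitors, 17 were called higher in keratinocytes and 4 lower, with a median log2 difference of 3.94. By role, 13 of 17 proteases and 4 of 6 inhibitors were higher. St14 (matriptase), which starts a protease cascade in the epidermis, was at 59.9, 62.6 and 66.6 FPKM in keratinocytes and 0.118, 0.128 and 0.072 in ADSCs (log2 difference 5.85, SE 0.21, adjusted p = 2.92e-09). Prss8 (prostasin), the protease that matriptase activates, was at 20.2, 13 and 11.5 FPKM in keratinocytes and 0.017, 0 and 0.019 in ADSCs (log2 difference 3.94, SE 0.52, adjusted p = 7.89e-05). Their inhibitors Spint1 and Spint2 were at 41.3 ± 7.28 FPKM in keratinocytes against 0.145 ± 0.0257 in ADSCs for Spint1 (log2 difference 5.19, adjusted p = 3.33e-07) and at 148 ± 10.3 FPKM in keratinocytes against 0.437 ± 0.176 in ADSCs for Spint2 (log2 difference 6.70, adjusted p = 1.35e-09). Enzyme and inhibitor were therefore both near the lower limit in all ADSC cultures and well above it in all keratinocyte cultures. Tfpi, which inhibits the tissue factor pathway of clotting, went the other way, at 54.9, 64.3 and 65.5 FPKM in ADSCs and 1.52, 0.723 and 0.74 in keratinocytes (log2 difference -4.99, SE 0.19, adjusted p = 4.07e-09). Tmprss4, Tmprss13 and Prss27 were further higher members, at 16, 17.2 and 22 FPKM on average in keratinocytes and under 1 FPKM in each ADSC library.

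Lysosomal cathepsins divided, with Ctsk on the stromal side: this collagen-degrading protease was at 125, 113 and 83.6 FPKM in ADSCs and 0.127, 0.022 and 0.106 in keratinocytes (log2 difference -6.62, SE 0.35, adjusted p = 5.02e-08). Ctsz was 18-fold lower in keratinocytes (131 ± 6.46 FPKM in ADSCs and 7.28 ± 1.82 in keratinocytes) and Ctsd 3.22-fold higher (1643 ± 167 FPKM in keratinocytes against 510.5 ± 84.5 in ADSCs). The 11 cathepsin-type proteases held 5 higher and 5 lower calls, and 4 of the 6 tested cystatins were higher. Without ADSC replicate 1 or 2 or keratinocyte replicate 2 or 3, 3 proteases were lower. Without ADSC replicate 1 or 2, 3 were higher, and without ADSC replicate 3 or keratinocyte replicate 2 or 3, 2 were higher, as under median scaling. The cystatin Cst6, which restrains cathepsins of the cornifying epidermis, was at 12.2, 25.4 and 19.1 FPKM in keratinocytes and 0.135, 0.216 and 0.091 in ADSCs (adjusted p = 1.29e-05). The Ly6 and uPAR-like proteins, small lipid-anchored surface proteins, were higher in 9 of 13 cases and lower in 1. Lypd3 was at 133, 121 and 104 FPKM in keratinocytes and 0.019, 0.105 and 0.044 in ADSCs (log2 difference 6.82, SE 0.25, adjusted p = 3.16e-09) and Ly6d at 297, 899.9 and 786 FPKM in keratinocytes and 0.411, 0.496 and 0.313 in ADSCs (log2 difference 8.73, SE 0.45, adjusted p = 4.11e-08). The lower one, Ly6c1, was at 50.8, 20.5 and 13.7 FPKM in ADSCs and 1.26, 1.52 and 1.77 in keratinocytes.

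Receptors and ligands that guide migrating cells differed by family. Eph receptors and ephrins, which act between touching cells, were called higher in 10 of 15 tested members and lower in 3. The ligand Efna1 was at 69.8, 50.1 and 47.8 FPKM in keratinocytes and 0.977, 0.507 and 0.533 in ADSCs, or 83.2-fold higher (log2 difference 5.08, SE 0.18, adjusted p = 2.33e-09). Its receptor Epha2 was higher as well (23.1 ± 7.3 FPKM in keratinocytes against 7.51 ± 3.16 in ADSCs; adjusted p = 0.00198), as was Epha1 (34 ± 8.23 FPKM in keratinocytes against 5.01 ± 2.4 in ADSCs; adjusted p = 1.42e-05). Epha3 was at 7.73, 7.08 and 5.53 FPKM in ADSCs and listed at 0 in every keratinocyte library. Ephb2 was 8.22-fold lower (7.28 ± 1.15 FPKM in ADSCs and 0.886 ± 0.0866 in keratinocytes; adjusted p = 1.42e-05). Slits and netrins, secreted guidance factors, and their receptors held 5 lower calls among 10 tested members. limma called none higher, and none was higher at an unadjusted p below 0.05, but 1 was called higher with a pseudocount of 0.1, with no filter, and in the 6 libraries alone with or without the replicate block. Slit3 was at 126, 99 and 119 FPKM in ADSCs and 0.495, 0.418 and 0.302 in keratinocytes, 283-fold lower in keratinocytes (log2 difference -6.36, SE 0.24, adjusted p = 3.37e-09). Its relative Slit2 was 36.7-fold lower (25.4 ± 9.05 FPKM in ADSCs and 0.69 ± 0.0802 in keratinocytes), and Unc5b, a netrin receptor, 7.92-fold lower (53.7 ± 18.2 FPKM in ADSCs and 6.78 ± 3.22 in keratinocytes).

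Semaphorins and their receptors were split by role: 6 of 13 ligands were higher and 3 lower, while 6 of 10 plexin and neuropilin receptors were lower and 2 higher. The count of higher receptors was 1 under median scaling and without ADSC replicate 2 or 3 or keratinocyte replicate 1 or 2. Sema3c, a secreted semaphorin, was at 134, 146 and 118 FPKM in keratinocytes and 27.4, 24.7 and 12.5 in ADSCs, 6.16-fold higher (adjusted p = 3.87e-06). Nrp1, a co-receptor of class 3 semaphorins and of VEGF, was at 39.7, 29 and 37.1 FPKM in ADSCs and 6.81, 5.34 and 4.63 in keratinocytes, 6.3-fold lower (adjusted p = 0.000159). Plxnb1, the receptor of class 4 semaphorins, was 8.56-fold higher (12.2 ± 2.67 FPKM in keratinocytes against 1.43 ± 0.238 in ADSCs).

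Adhesion molecules of the immunoglobulin type held 11 higher and 10 lower calls among 24. Within the nectins, which join neighbouring cells at adherens junctions, Nectin4 was at 34.2, 24.6 and 20.2 FPKM in keratinocytes and 0.377, 0.322 and 0.205 in ADSCs (87.4-fold; adjusted p = 9.96e-06) and Nectin1 was 4.5-fold higher (27.5 ± 0.371 FPKM in keratinocytes against 6.11 ± 0.811 in ADSCs). Nectin3, a binding partner of Nectin1, was at 18.9, 17.6 and 17.4 FPKM in ADSCs and 3.33, 2.19 and 1.96 in keratinocytes (7.21-fold lower; adjusted p = 2.95e-05), and Nectin2 was 2.37-fold lower (54.2 ± 7.86 FPKM in ADSCs and 22.9 ± 0.416 in keratinocytes). The junctional adhesion molecules divided likewise: F11r (JAM-A) was 7-fold higher (118 ± 14.3 FPKM in keratinocytes against 16.9 ± 4.31 in ADSCs), Cxadr 40.9-fold higher (32.1 ± 1.23 FPKM in keratinocytes against 0.784 ± 0.17 in ADSCs), and Jam3 42-fold lower (20.8 ± 0.915 FPKM in ADSCs and 0.494 ± 0.138 in keratinocytes). Vcam1, a ligand for leukocyte integrins, was at 101, 73.1 and 46.2 FPKM in ADSCs and 0.451, 0.5 and 0.392 in keratinocytes. Icam1, another such ligand, was higher in keratinocytes, 6.1-fold (22.9 ± 6 FPKM in keratinocytes against 3.75 ± 1.03 in ADSCs; adjusted p = 0.000114). Of 37 tested protocadherins and atypical cadherins, 30 were lower and 4 higher, but 25 of the 30 belong to the clustered protocadherins, whose gamma members share exons and had near-identical values, so they count as about 1 locus. Outside the clusters, Pcdh1 was at 45.1, 50.1 and 41.1 FPKM in keratinocytes and 2.51, 1.71 and 2.54 in ADSCs (log2 difference 3.84, SE 0.59, adjusted p = 0.000242), and Fat2 and Celsr2 were higher as well. Pcdh19 was 8.85-fold lower (15.9 ± 3.82 FPKM in ADSCs and 1.79 ± 0.305 in keratinocytes).

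Several ligand and receptor pairs were divided between the groups. Hepatocyte growth factor (Hgf), a classic stromal signal to epithelia, was at 39.6, 23.2 and 11.3 FPKM in ADSCs and 0.569, 0.764 and 0.392 in keratinocytes, 43-fold lower in keratinocytes (log2 difference -3.87, SE 0.33, adjusted p = 2.54e-06). Its receptor Met was at 27.4, 26 and 28.6 FPKM in keratinocytes and 3.54, 1.22 and 1.56 in ADSCs (log2 difference 3.26, SE 0.24, adjusted p = 6.79e-07), and Mst1r, the receptor of the related ligand MSP, was 6.38-fold higher (7.57 ± 1.63 FPKM in keratinocytes against 1.19 ± 0.436 in ADSCs). Neither Hgf nor Met overlapped between groups, although Hgf varied among the ADSC cultures. Of the 4 tested genes of HGF, MSP and their receptors, 3 were higher in keratinocytes and 1, Hgf, was lower. Among the higher ones was 1 of the 2 tested ligand genes (log2 difference 1.26), on the same side as the receptors.

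In the interleukin-1 family the ligand stood on the keratinocyte side: Il1a was at 13.9, 7.02 and 11.9 FPKM in keratinocytes and 0.016, 0.035 and 0.036 in ADSCs (adjusted p = 0.000414), and Il1f9, an epidermal member of the family, was listed at 0 in all ADSC cultures and at 18.1, 7.76 and 5.69 FPKM in keratinocytes. The receptor Il1r1 was at 63.3, 23.8 and 24.9 FPKM in ADSCs and 7.1, 5.65 and 5.29 in keratinocytes and thus lower in keratinocytes (log2 difference -2.31, SE 0.37, adjusted p = 0.000294). Among 14 tested members 6 were higher and 2 lower. Without keratinocyte replicate 1 there were 3 higher, without that replicate or without ADSC replicate 1 there was 1 lower, and with the replicate block in the 6 libraries there were 5 lower.

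Of 21 tested genes of gp130 cytokines, their receptors and the signalling downstream, 11 were lower in keratinocytes and 1 was higher. By role, 2 of 7 ligands, 5 of 6 receptors and 4 of 8 signalling genes were lower, and a filter at 5 FPKM left 3 lower receptors. The shared receptor Il6st (gp130) was at 183, 93.6 and 80.8 FPKM in ADSCs and 18.7, 16.6 and 16 in keratinocytes, 6.98-fold lower (log2 difference -2.64, SE 0.32, adjusted p = 3.92e-05), and the oncostatin M receptor Osmr was 8.91-fold lower (52.8 ± 13.1 FPKM in ADSCs and 5.92 ± 0.487 in keratinocytes). Il6 was at 12.9, 8.55 and 12.8 FPKM in ADSCs and 0.556, 0.61 and 0.557 in keratinocytes (19.9-fold). The 1 higher member was Il6ra, the ligand-binding receptor of interleukin 6, at 8.55, 7.4 and 5.7 FPKM in keratinocytes and 2.25, 1.22 and 1.44 in ADSCs (log2 difference 1.64, SE 0.46, adjusted p = 0.0109). Stat3, the transcription factor downstream, was 1.97-fold lower (55.2 ± 8.27 FPKM in ADSCs and 28.1 ± 1.49 in keratinocytes; adjusted p = 0.000388), while Socs3, its feedback inhibitor, missed the threshold (18.9 ± 14.6 FPKM in ADSCs and 18.9 ± 2.35 in keratinocytes; adjusted p = 0.728).

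Growth factors for blood vessels were mostly lower in keratinocytes. Of 13 tested VEGF, angiopoietin and angiopoietin-like genes, 11 were lower in keratinocytes, with a median log2 difference of -1.33. Vegfa was at 72.4, 61 and 57.2 FPKM in ADSCs and 13.1, 12.6 and 14 in keratinocytes, 4.79-fold lower (log2 difference -2.17, SE 0.34, adjusted p = 0.000284), and Vegfd was lower as well (40.2 ± 26.5 FPKM in ADSCs and 4.6 ± 0.354 in keratinocytes; log2 difference -2.70). Angpt4, a ligand of the endothelial receptor Tie2, was at 22.9, 20.8 and 13.7 FPKM in ADSCs and 0.057, 0.059 and 0.1 in keratinocytes. The heparin-binding factors pleiotrophin (Ptn) and midkine (Mdk) were both lower. Ptn was at 291, 56.5 and 32.8 FPKM in ADSCs and 0.313, 0.069 and 0.033 in keratinocytes, with the highest value in mouse 1, and Mdk was 42.2-fold lower (9.04 ± 2.48 FPKM in ADSCs and 0.214 ± 0.153 in keratinocytes; adjusted p = 2.64e-07). Bdnf, a neurotrophin, was 19.7-fold lower (6.79 ± 0.679 FPKM in ADSCs and 0.344 ± 0.133 in keratinocytes), whereas Ntf5, which signals through the same receptor, was 8.63-fold higher (7.81 ± 0.868 FPKM in keratinocytes against 0.905 ± 0.28 in ADSCs; adjusted p = 1.41e-06).

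The insulin-like growth factor axis differed mostly in the proteins that bind the ligand. Of 16 tested members 3 were higher and 8 lower, and of the 6 binding proteins 2 were higher and 4 lower. Igfbp3 was at 301, 257 and 246 FPKM in keratinocytes and 19.4, 27 and 4.64 in ADSCs, 15.8-fold higher (log2 difference 4.18, SE 0.49, adjusted p = 2.78e-05), and Igfbp2 3.46-fold higher (126 ± 21.5 FPKM in keratinocytes against 36.5 ± 15.7 in ADSCs). Igfbp6 was at 132, 89 and 81.9 FPKM in ADSCs and 0.103, 0.135 and 0.13 in keratinocytes (log2 difference -6.47, SE 0.27, adjusted p = 8.97e-09), and Igfbp7 3.73-fold lower (723 ± 71.7 FPKM in ADSCs and 194 ± 34.4 in keratinocytes). Pappa, a protease that cleaves some of these binding proteins, was at 34.7, 39.7 and 39.2 FPKM in ADSCs and 0.256, 0.188 and 0.142 in keratinocytes (log2 difference -5.02, SE 0.17, adjusted p = 1.49e-09). The receptors Igf1r and Insr missed the threshold, at 9.94 ± 1.17 FPKM in ADSCs and 11.1 ± 0.861 in keratinocytes for Igf1r and 4.74 ± 0.673 FPKM in ADSCs and 5.75 ± 1.18 in keratinocytes for Insr (adjusted p = 0.483 and 0.256).

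**Figure D4:**
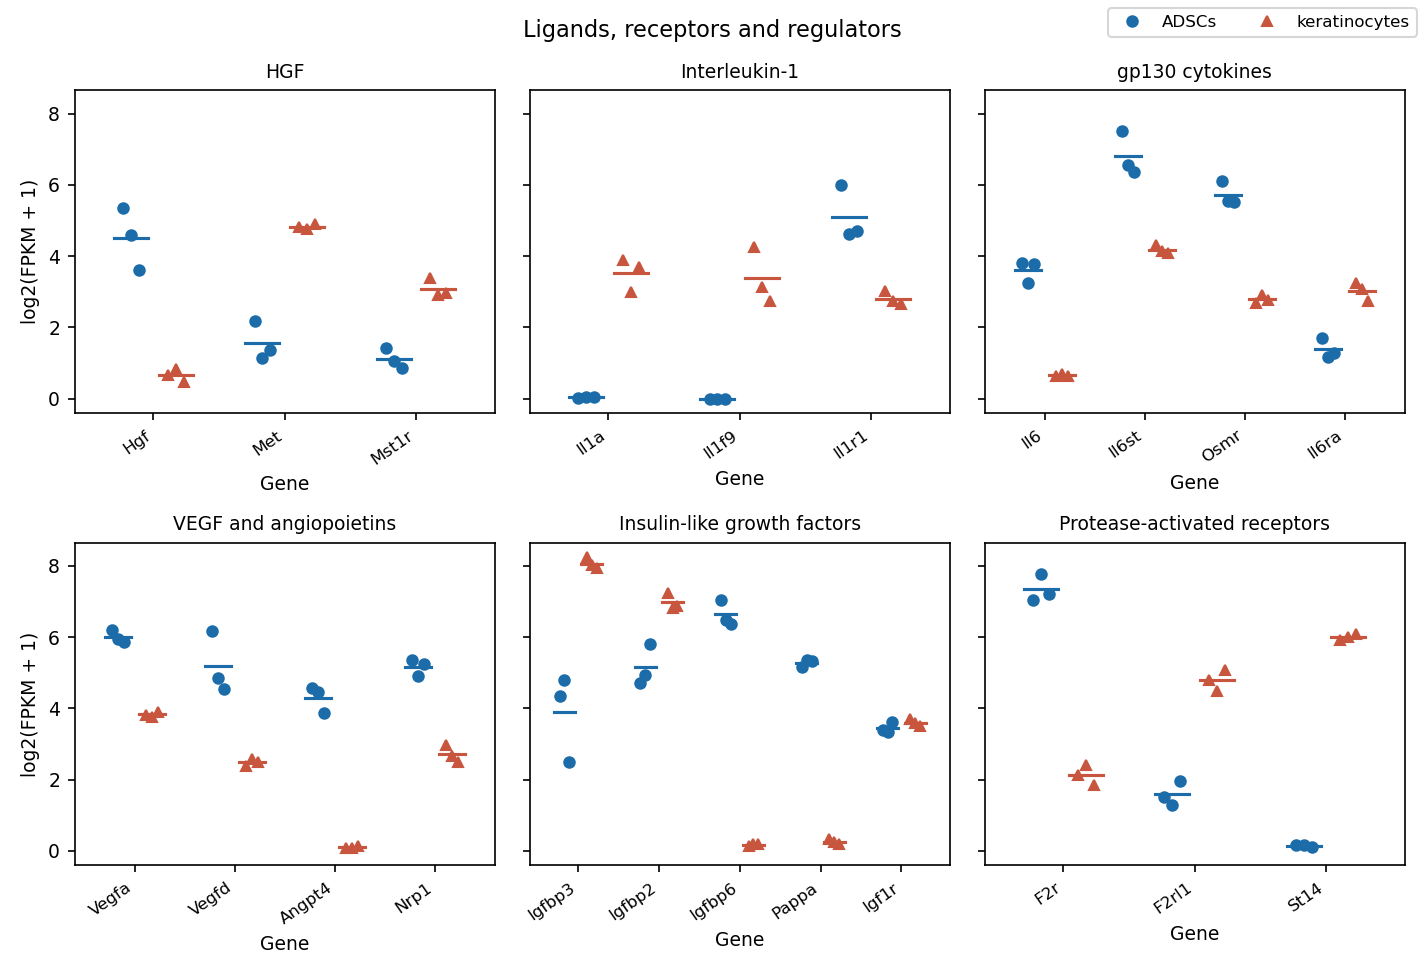
Log2(FPKM + 1) of ligands, receptors and regulators of 6 signalling systems (HGF, interleukin-1, gp130 cytokines, VEGF and angiopoietins, insulin-like growth factors, protease-activated receptors), 1 point per library (circles ADSCs, triangles keratinocytes; n = 3 each) and a line at each group mean. Hgf is high in the circles and Met in the triangles, whereas Il1a is high in the triangles and Il1r1 in the circles.

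Of 20 tested TNF superfamily genes, 6 were higher and 7 lower. The TNF receptors Tnfrsf1b and Tnfrsf1a were lower by 34-fold (9.26 ± 1.45 FPKM in ADSCs and 0.272 ± 0.023 in keratinocytes) and 2.77-fold (91.1 ± 23.8 FPKM in ADSCs and 32.9 ± 1.14 in keratinocytes). Tnfrsf18 (GITR), known from T cells, was at 13.6, 20.5 and 22.9 FPKM in keratinocytes and 0.188, 0.068 and 0.036 in ADSCs, and Tnfrsf23, a decoy receptor of the ligand TRAIL, was 3.51-fold higher (51.3 ± 2.82 FPKM in keratinocytes against 14.6 ± 3.19 in ADSCs; adjusted p = 0.000279).

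Dual-specificity phosphatases differed from Sprouty and Spred genes. Of 18 tested dual-specificity phosphatases 8 were higher and 4 lower, and without ADSC replicate 2 there were 2 lower. Only some members of this family remove the activating phosphates of MAP kinases, so the count is not one of MAP kinase inhibitors alone. Of the 6 tested Sprouty and Spred genes, which block the MAP kinase pathway further up, 5 were lower. Dusp7 was at 92.7, 92.2 and 98.9 FPKM in keratinocytes and 8.33, 5.61 and 6.25 in ADSCs, 14.1-fold higher (log2 difference 3.64, SE 0.16, adjusted p = 1.47e-08), and Dusp14 5.78-fold higher (36.9 ± 5.74 FPKM in keratinocytes against 6.39 ± 0.53 in ADSCs). Spry1 was at 25.6, 32.6 and 34 FPKM in ADSCs and 1.83, 1.14 and 0.939 in keratinocytes, 23.6-fold lower (log2 difference -3.79, SE 0.20, adjusted p = 4.41e-08), and Spry2 4.05-fold lower (21.3 ± 7.18 FPKM in ADSCs and 5.26 ± 0.354 in keratinocytes). The median log2 difference of the whole list was 0.122 and changed sign under median scaling and quantile normalization, but the calls of these 4 genes held.

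Receptors for proteases and lipids showed the same division of related genes. F2r, the thrombin receptor PAR1, was at 130.1, 219 and 146 FPKM in ADSCs and 3.37, 4.3 and 2.57 in keratinocytes, 48.4-fold lower in keratinocytes (log2 difference -5.22, SE 0.33, adjusted p = 1.99e-07). F2rl1, the receptor PAR2, which trypsin-like proteases such as matriptase cleave, was at 26.8, 21.6 and 32.7 FPKM in keratinocytes and 1.87, 1.42 and 2.89 in ADSCs, 13.1-fold higher (log2 difference 3.20, SE 0.36, adjusted p = 2.22e-05). S1pr3, a receptor of sphingosine 1-phosphate, was 52.5-fold lower (17.4 ± 4.54 FPKM in ADSCs and 0.332 ± 0.0465 in keratinocytes), and Lpar1, a receptor of lysophosphatidic acid, 6-fold lower (32.4 ± 8.54 FPKM in ADSCs and 5.4 ± 0.917 in keratinocytes). Nt5e (CD73), which makes adenosine from AMP and is widely used as a surface marker of mesenchymal stromal cells, was higher in keratinocytes: it was at 82.6, 85.8 and 93.3 FPKM in keratinocytes and 0.993, 0.305 and 0.211 in ADSCs (log2 difference 5.91, SE 0.33, adjusted p = 6.83e-08). Of the 20 tested members of this list 9 were higher and 7 lower.

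Genes for the synthesis, breakdown, transport and receptors of prostaglandins and leukotrienes held calls in both directions. Of 28 tested genes 11 were higher and 7 lower (64.3% called against 53.5% of all genes). Ptgis, the prostacyclin synthase, was at 53.6, 38.5 and 41.5 FPKM in ADSCs and 0.534, 0.398 and 0.325 in keratinocytes (log2 difference -4.99, SE 0.22, adjusted p = 1.12e-08), and Ptgs1 (cyclooxygenase 1) was 5.19-fold lower (27.4 ± 10.9 FPKM in ADSCs and 5.27 ± 0.195 in keratinocytes). Ptges, an inducible prostaglandin E synthase, was 3.12-fold higher (20.1 ± 1.55 FPKM in keratinocytes against 6.46 ± 0.361 in ADSCs; adjusted p = 2.69e-05). The prostaglandin transporter Slco2a1 and the degrading enzyme Hpgd, which together clear prostaglandins, were both higher. Slco2a1 was at 96.9, 106 and 112 FPKM in keratinocytes and 15.8, 17.8 and 18.9 in ADSCs, 6-fold higher (adjusted p = 0.00653), and Hpgd at 205, 46.3 and 23.5 FPKM in keratinocytes and 0.202, 0.358 and 0.126 in ADSCs, highest in the keratinocytes of mouse 1. Ptgs2 (cyclooxygenase 2) missed the threshold (103 ± 49.9 FPKM in ADSCs and 59 ± 19.5 in keratinocytes; adjusted p = 0.389), but was called lower with the replicate block in the 6 libraries.

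In the retinoid pathway, which turns vitamin A into retinoic acid, 8 of 23 tested genes were higher and 6 lower (60.9% called against 53.5% of all genes). Aldh1a2, an enzyme that makes retinoic acid, was at 15.6, 29.2 and 31.3 FPKM in ADSCs and listed at 0 in all keratinocyte libraries. Dhrs3, which converts retinaldehyde back to retinol, was 6.19-fold lower (69.3 ± 28.1 FPKM in ADSCs and 11.2 ± 1.13 in keratinocytes), and Rdh12, an enzyme of the same interconversion, 14.7-fold higher (13.4 ± 0.386 FPKM in keratinocytes against 0.918 ± 0.338 in ADSCs). The carriers Crabp2 and Fabp5, which bring retinoic acid to nuclear receptors, were higher, at 137 ± 37.4 FPKM in keratinocytes against 14.5 ± 9.43 in ADSCs for Crabp2 and 199 ± 9.58 FPKM in keratinocytes against 35.2 ± 19.5 in ADSCs for Fabp5. Rxra, the shared nuclear receptor partner, was 3.5-fold higher (41.6 ± 0.387 FPKM in keratinocytes against 11.9 ± 3.15 in ADSCs; adjusted p = 1.56e-05).

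The epidermal water barrier is built from ceramides with very long fatty acids. Of 16 tested genes of ceramide synthesis in general, 10 were higher in keratinocytes and 5 lower. Of 10 tested genes of fatty acid elongation and desaturation, 2 were higher and 3 lower. Elovl4, which makes the longest fatty acids of barrier ceramides, was at 27.3, 49.2 and 37.4 FPKM in keratinocytes and 1.12, 1.77 and 1.75 in ADSCs, 24.6-fold higher (log2 difference 3.91, SE 0.44, adjusted p = 2.18e-05). Cers3, the ceramide synthase that uses them, was at 25, 21.3 and 19.9 FPKM in keratinocytes and 0.077, 0.126 and 0.088 in ADSCs (log2 difference 4.39, SE 0.23, adjusted p = 4.33e-08), and Abca12, which loads their products into lamellar granules, at 5.88, 8.4 and 8.16 FPKM in keratinocytes and 0.008, 0.016 and 0 in ADSCs. Each of the 3 was under 2 FPKM in every ADSC library. Ugcg, which adds glucose to ceramide, was at 91.9, 98.7 and 86.1 FPKM in ADSCs and 14.7, 11.9 and 11.3 in keratinocytes, 7.29-fold lower in keratinocytes (adjusted p = 1.18e-06), and Acer2, a ceramidase, was 24.3-fold higher (13.7 ± 0.687 FPKM in keratinocytes against 0.562 ± 0.141 in ADSCs). Over all 35 tested ceramide and fatty acid genes 14 were higher and 11 lower, with a median log2 difference of 0.114 that turned negative under median scaling, quantile normalization and without ADSC replicate 1.

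Genes for the synthesis and sulfation of glycosaminoglycans, the sugar chains of proteoglycans, and for the synthesis, binding and breakdown of hyaluronan were lower in keratinocytes in 24 of 44 cases and higher in 5, with a median log2 difference of -0.58. Among the 18 genes of chain synthesis, 13 were lower and 1 higher, and without keratinocyte replicate 2 or 3 or under either scaling limma called none higher, against 2 higher at an unadjusted p below 0.05 in all libraries. Csgalnact1, which starts chondroitin chains, was at 95.7, 84.4 and 76.4 FPKM in ADSCs and 2.48, 2.26 and 1.91 in keratinocytes, 38.6-fold lower (log2 difference -4.75, SE 0.19, adjusted p = 5.29e-09). The sulfotransferases Hs6st2, for heparan sulfate, and Chst11, for chondroitin sulfate, were lower as well. Hs6st2 was at 48.3, 57.3 and 61.7 FPKM in ADSCs and 0.439, 0.465 and 0.424 in keratinocytes (126-fold), and Chst11 was 30.8-fold lower (31 ± 8.45 FPKM in ADSCs and 1.01 ± 0.285 in keratinocytes). For hyaluronan, the synthase Has2 was 15.3-fold lower (21.1 ± 3 FPKM in ADSCs and 1.38 ± 0.176 in keratinocytes) and Cemip, a protein needed to break hyaluronan down, was at 122, 254 and 277 FPKM in ADSCs and 0.66, 0.59 and 0.54 in keratinocytes (364-fold lower; adjusted p = 7.91e-09). The lysosomal hyaluronidase Hyal1 was 7.37-fold higher (28.8 ± 3.02 FPKM in keratinocytes against 3.9 ± 0.893 in ADSCs; adjusted p = 1.6e-06).

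Transporters of sugars were mostly higher in keratinocytes, and genes of amino acid transporter families were more often lower. Of 27 tested glucose and monocarboxylate transporters and accessory genes 15 were higher and 6 lower. Slc2a1 (GLUT1), the main glucose carrier of the epidermis, was at 405, 275 and 263 FPKM in keratinocytes and 65.2, 70.9 and 58.5 in ADSCs, 4.84-fold higher (log2 difference 2.23, SE 0.34, adjusted p = 0.000227), and the fructose carrier Slc2a5 was at 12, 14.8 and 14.6 FPKM in keratinocytes and 0.183, 0.365 and 0.267 in ADSCs. Slc2a10, of the same family, was lower (6.69 ± 0.451 FPKM in ADSCs and 0.101 ± 0.0145 in keratinocytes; log2 difference -2.80). Of 28 tested genes of amino acid transporter families 3 were higher and 10 lower. The family relatives Slc43a2 and Slc43a3 went opposite ways. Slc43a2 was at 21.1, 27.7 and 21.5 FPKM in keratinocytes and 0.52, 0.49 and 0.604 in ADSCs (43.6-fold higher) and Slc43a3 at 29.7, 38.7 and 18.9 FPKM in ADSCs and 1.14, 0.775 and 0.81 in keratinocytes (32-fold lower). The metallothioneins Mt1 and Mt2, which bind zinc, were higher by 3.49-fold (706 ± 98.5 FPKM in keratinocytes against 202 ± 51.1 in ADSCs) and 4.23-fold (655 ± 137 FPKM in keratinocytes against 155 ± 62.7 in ADSCs). Aqp3, the water and glycerol channel of the basal epidermis, was at 36.2, 26.1 and 23.9 FPKM in keratinocytes and 0.089, 0.136 and 0.082 in ADSCs (adjusted p = 0.000172). Stim1, a calcium sensor of the endoplasmic reticulum, was 4.88-fold higher (49.4 ± 4.53 FPKM in keratinocytes against 10.1 ± 1.32 in ADSCs), and Piezo1, a channel opened by stretch, 2.87-fold lower (42.9 ± 5.39 FPKM in ADSCs and 14.9 ± 0.871 in keratinocytes; adjusted p = 0.00119).

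Of 47 tested glutathione genes and targets of the oxidative stress regulator NRF2, 13 were higher and 18 lower. Gpx3, the secreted glutathione peroxidase, was at 408, 399.8 and 333 FPKM in ADSCs and 8.5, 1.55 and 1.65 in keratinocytes (log2 difference -6.57, SE 0.77, adjusted p = 2.92e-05), and Gpx7, of the endoplasmic reticulum, 63.5-fold lower (42.8 ± 1.23 FPKM in ADSCs and 0.675 ± 0.145 in keratinocytes). Gpx1, the cytosolic one, was 2.23-fold higher (529.5 ± 32.2 FPKM in keratinocytes against 237 ± 26.4 in ADSCs). For the first step of glutathione synthesis the subunits differed in opposite directions: the catalytic Gclc was 7.1-fold higher (56.7 ± 15.2 FPKM in keratinocytes against 7.98 ± 1.19 in ADSCs; adjusted p = 3.21e-05) and the modifier Gclm 2.28-fold lower (19.4 ± 2.08 FPKM in ADSCs and 8.53 ± 1.14 in keratinocytes; adjusted p = 3.67e-05). Gsr, which regenerates glutathione, was 5.62-fold higher (58.7 ± 4.67 FPKM in keratinocytes against 10.4 ± 1.65 in ADSCs), and Txnrd1, which regenerates thioredoxin, 4.24-fold lower (62.7 ± 20.5 FPKM in ADSCs and 14.8 ± 1.08 in keratinocytes). NRF2 itself (Nfe2l2) missed the threshold (71.1 ± 3.09 FPKM in ADSCs and 87.1 ± 10.2 in keratinocytes; adjusted p = 0.106).

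The machinery that all cells use held fewer calls. Of 78 tested respiratory chain subunits 8 were higher and 5 lower (16.7% against 53.5% of all genes). Of its 14 subunits of ATP synthase limma called none, and 1 passed at an unadjusted p below 0.05. Of 76 mitochondrial ribosomal proteins 13 were higher and 1 lower, and of 41 proteasome subunits 11 were higher. Of the 8 subunits of the cytosolic chaperonin limma called none, and 2 passed at an unadjusted p below 0.05. These counts depended on the setting. Under median scaling the higher calls fell to 2, 7 and 5 for the respiratory chain, the mitochondrial ribosome and the proteasome, with 9 respiratory genes lower. With the replicate block in the 6 libraries alone they came to 23, 34 and 22, and 6 of the 14 ATP synthase and 4 of the 8 chaperonin subunits were then called higher. With the replicate block over all 12 libraries 1 subunit of each was called higher, and in the 6 libraries without it 3 and 1. Without ADSC replicate 3 or keratinocyte replicate 1, 1 chaperonin subunit was higher. Without ADSC replicate 1 or keratinocyte replicate 2 the proteasome count was 7, without keratinocyte replicate 3 it was 6, and without ADSC replicate 2 or keratinocyte replicate 1 or 2 there were 3 lower respiratory genes. Among individual genes, Uqcrc1, a core protein of complex III, was 2.16-fold higher (136 ± 8.56 FPKM in keratinocytes against 63.2 ± 8.32 in ADSCs; adjusted p = 4.29e-05), and Psme4, a proteasome activator, was 1.51-fold higher (31 ± 1.54 FPKM in keratinocytes against 20.6 ± 1.74 in ADSCs; adjusted p = 0.000346). Heat shock proteins were less even: Hspb1 was 16.7-fold higher (360.1 ± 23.8 FPKM in keratinocytes against 21.5 ± 7.1 in ADSCs), while the related muscle-type Hspb7 was at 12.3, 18 and 13.7 FPKM in ADSCs and 0.06, 0.013 and 0 in keratinocytes.

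Genes of the secretory pathway were more often lower than higher in keratinocytes. Of 51 tested genes of transport from the endoplasmic reticulum to the Golgi and of the associated stress response, 26 were lower in keratinocytes and 6 higher, with a median log2 difference of -0.40. In the COPII coat, which carries procollagen, paralogs differed in opposite directions. Sec23a was at 66.5, 75.9 and 71 FPKM in ADSCs and 24.9, 19.6 and 18.2 in keratinocytes, 3.4-fold lower (log2 difference -1.73, SE 0.13, adjusted p = 9.39e-07), and Sec24d was 3.25-fold lower (57.6 ± 5.1 FPKM in ADSCs and 17.7 ± 4.34 in keratinocytes). Their paralogs Sec23b and Sec24c were 1.47-fold and 1.8-fold higher (39.5 ± 1.84 FPKM in keratinocytes against 26.9 ± 3.71 in ADSCs for Sec23b, and 36.9 ± 2.13 FPKM in keratinocytes against 20.5 ± 1.99 in ADSCs for Sec24c). Mia3 (TANGO1), which recruits procollagen to exit sites, was 2.39-fold lower (36.9 ± 2.5 FPKM in ADSCs and 15.4 ± 1.6 in keratinocytes). Kdelr3, a receptor that returns chaperones to the endoplasmic reticulum, was 6.91-fold lower (112 ± 10.1 FPKM in ADSCs and 16.2 ± 4.62 in keratinocytes), and Creb3l1, a membrane-bound factor for collagen genes, was at 46.5, 36 and 53.9 FPKM in ADSCs and 0.794, 0.75 and 0.589 in keratinocytes (64-fold lower).

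**Figure D5:**
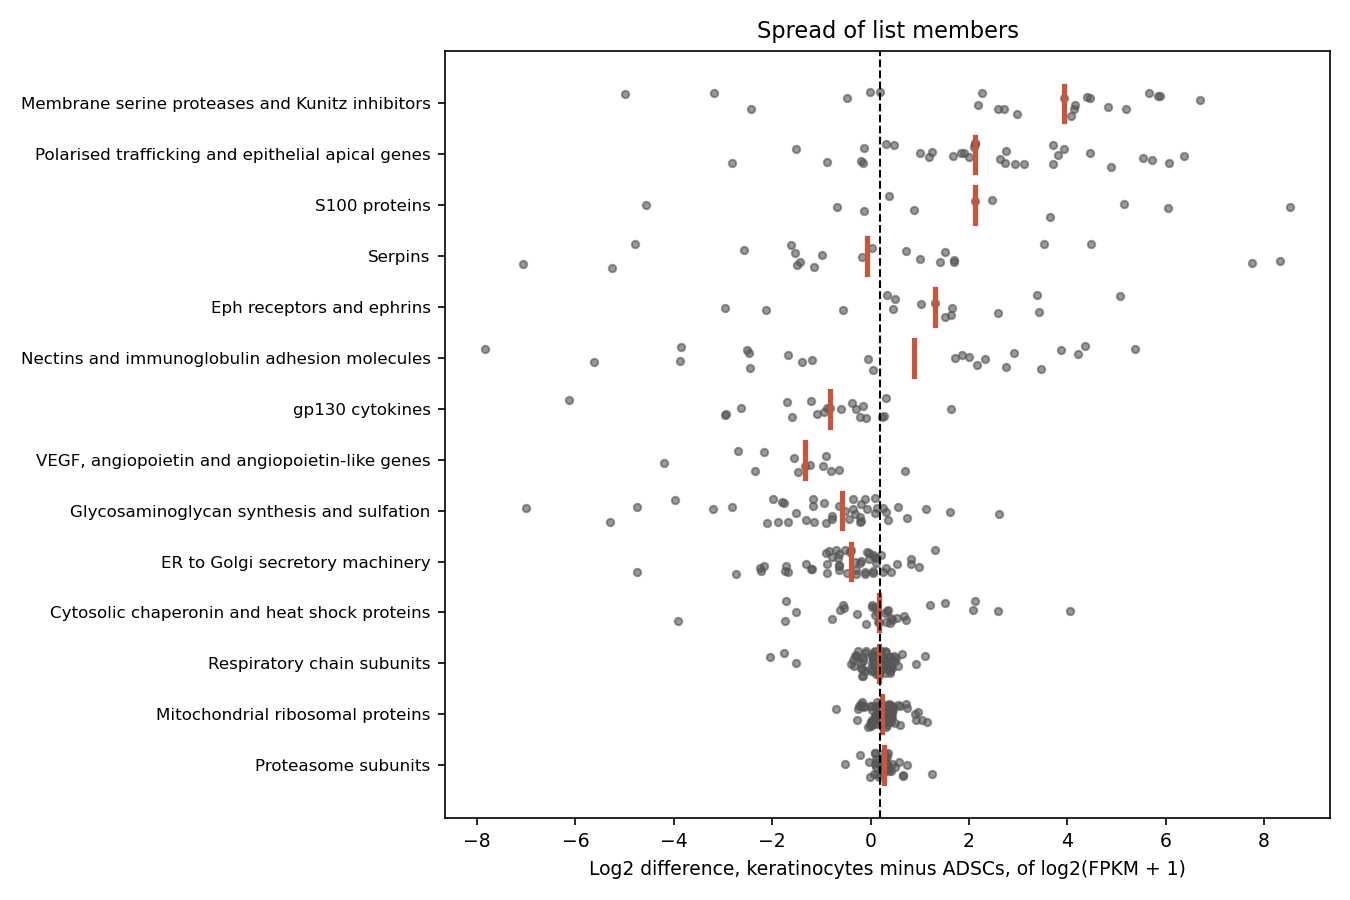
Log2 difference (keratinocytes minus ADSCs, on log2(FPKM + 1)) of every tested member of 14 lists, 1 point per gene, with a bar at the list's median. The dashed line marks the median over all tested genes (0.184). Points of the shared machinery (chaperonin and heat shock proteins apart) crowd near the line, while the surface, protease and S100 families spread over many units on both sides.

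Actin-binding proteins were split almost evenly, 19 higher and 18 lower of 55 tested. Of the 26 tropomyosin, calponin and myosin genes among them 9 were higher and 7 lower. Among the lower ones, Tagln was at 1178, 1917 and 2235 FPKM in ADSCs and 31.2, 25 and 38.7 in keratinocytes, 56.2-fold lower in keratinocytes (log2 difference -5.74, SE 0.71, adjusted p = 4.79e-05), Cnn1 109-fold lower (269.8 ± 90.1 FPKM in ADSCs and 2.48 ± 0.823 in keratinocytes), and Myh10, a non-muscle myosin heavy chain, 17.6-fold lower (42.6 ± 10.4 FPKM in ADSCs and 2.42 ± 1.21 in keratinocytes). Myh9, its more abundant paralog, missed the threshold (326 ± 80.5 FPKM in ADSCs and 279 ± 14.3 in keratinocytes; adjusted p = 0.564). Tns4, a tensin lacking the actin-binding part, was at 116, 111 and 121 FPKM in keratinocytes and 0.192, 0.208 and 0.128 in ADSCs (log2 difference 6.64, SE 0.16, adjusted p = 1.65e-10), and Tns1, a full-length tensin, at 39.1, 55.3 and 69 FPKM in ADSCs and 3.3, 3.26 and 2.66 in keratinocytes. Ezr (ezrin), which ties actin to the membrane of epithelia, was higher (123 ± 6.08 FPKM in keratinocytes against 4.4 ± 2.56 in ADSCs; log2 difference 4.62, adjusted p = 1.73e-06).

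Among families of transcription factors, the KLF and SP factors held 8 higher and 2 lower calls of 16 tested, with 1 lower without ADSC replicate 2 or keratinocyte replicate 3. Klf5 was at 36.3, 32.5 and 32.1 FPKM in keratinocytes and 0.675, 0.673 and 1.06 in ADSCs, 41.9-fold higher (log2 difference 4.27, SE 0.33, adjusted p = 1.2e-06), Klf10 11.8-fold higher (61.8 ± 7.15 FPKM in keratinocytes against 5.25 ± 0.988 in ADSCs), and Klf2 16.3-fold lower (9.33 ± 1.15 FPKM in ADSCs and 0.574 ± 0.173 in keratinocytes). Klf4, known for its part in the epidermal barrier, missed the threshold (22.3 ± 3.49 FPKM in ADSCs and 29.2 ± 1.09 in keratinocytes; adjusted p = 0.242), but was called higher when the 6 libraries were fitted alone. Ehf, an ETS factor of epithelia, was at 46.8, 41.4 and 27.9 FPKM in keratinocytes and 0.021, 0.016 and 0.025 in ADSCs (log2 difference 5.25, SE 0.65, adjusted p = 4.44e-05), and Elf3, of the same group, was listed at 0 in ADSCs and at 21.8, 7.01 and 5.41 FPKM in keratinocytes. The ETS factors held 7 higher and 3 lower calls among 17, or 5 lower under median scaling and quantile normalization. Of the 19 tested forkhead factors 9 were higher and 4 lower, led by Foxq1 at 9.82, 14.7 and 10.4 FPKM in keratinocytes and 0.101, 0.024 and 0 in ADSCs.

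Nuclear receptors held 7 higher and 10 lower calls of 26. The vitamin D receptor Vdr was 4.58-fold higher (63.2 ± 6.54 FPKM in keratinocytes against 13.8 ± 5.32 in ADSCs; adjusted p = 1.89e-05). Nr4a1, an immediate early receptor, was at 38.5, 42.1 and 48.7 FPKM in ADSCs and 1.51, 1.21 and 1.36 in keratinocytes, 31.8-fold lower (adjusted p = 1.61e-06), and Pparg, the regulator of fat cell formation, was at 6.69, 5.18 and 5.99 FPKM in ADSCs and 0, 0 and 0.037 in keratinocytes. Irx3 and Irx5, neighbouring Iroquois genes on chromosome 8, differed alike, 5.61-fold (18.9 ± 4.67 FPKM in keratinocytes against 3.36 ± 0.973 in ADSCs) and 6.21-fold (21.5 ± 3.54 FPKM in keratinocytes against 3.47 ± 0.631 in ADSCs) higher. Among 31 Polycomb genes 14 were higher and 3 lower. Under median scaling these counts were 9 and 7, after quantile normalization 7 were lower, and without keratinocyte replicate 2 there was 1 lower. Ezh1 was 3.21-fold higher (10.7 ± 1.07 FPKM in keratinocytes against 3.33 ± 0.604 in ADSCs). Of 30 remodeller genes 10 were higher and 4 lower (46.7% called against 53.5% of all genes). Among them Chd3 was 7.3-fold lower (54.4 ± 1.48 FPKM in ADSCs and 7.45 ± 1.8 in keratinocytes; adjusted p = 1.11e-06).

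Innate immunity was divided as well. Pycard, the adaptor of inflammasomes, was at 13.9, 13.4 and 15 FPKM in keratinocytes and 0.53, 0.767 and 0.487 in ADSCs, 23.7-fold higher (log2 difference 3.25, SE 0.36, adjusted p = 1.94e-05), and Gsdma, a gasdermin of skin that may share reads with its close copies, at 11.2, 8.2 and 6.16 FPKM in keratinocytes and 0.023, 0 and 0.026 in ADSCs. Gsdmd, the gasdermin cut by inflammatory caspases, was 8.78-fold lower (12.3 ± 1.46 FPKM in ADSCs and 1.4 ± 0.761 in keratinocytes; adjusted p = 1.94e-05), as was Casp4 by 5.04-fold (8.07 ± 3 FPKM in ADSCs and 1.6 ± 0.615 in keratinocytes). Over the list of 21 tested genes of Toll-like receptors, inflammasomes and gasdermins 9 were higher and 6 lower. Complement components were lower in 6 of 7 cases, and a filter at 5 FPKM left 3 lower ones. The remaining component was not called (log2 difference 1.03). It was called higher in the 6 libraries alone, with or without the replicate block, and without ADSC replicate 1. C1s1, a protease of the first complement complex, was at 49.4, 25.7 and 12.4 FPKM in ADSCs and 5.09, 0.776 and 0.539 in keratinocytes (log2 difference -3.36, SE 0.82, adjusted p = 0.00516), and Colec12, a collectin, was at 85.1, 59.3 and 42 FPKM in ADSCs and 3.12, 3.75 and 2.16 in keratinocytes, 20.7-fold lower. Clu (clusterin), a secreted chaperone that also blocks the final complement complex, was at 675, 885 and 753 FPKM in keratinocytes and 2.42, 0.548 and 0.676 in ADSCs (log2 difference 8.53, SE 0.91, adjusted p = 1.42e-05). Immune markers summed highest in the ADSC culture of mouse 2, and their part in these results was not tested.

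In antigen presentation, 9 of 16 class I genes were higher and 2 lower, and of 4 class II genes 3 were lower. A filter at 5 FPKM left 9 higher class I genes and 0 lower genes of either class, so the lower calls rest on genes of low level. H2-K1, a class I heavy chain, was 5.03-fold higher (189 ± 59.7 FPKM in keratinocytes against 37.6 ± 7.42 in ADSCs), and reads of H2-K1, H2-D1 and H2-L may be shared between these near-identical genes. Tap1, which pumps peptides to class I molecules, was 3.14-fold higher (15.1 ± 2.46 FPKM in keratinocytes against 4.81 ± 0.775 in ADSCs; adjusted p = 0.000234). B2m, the shared light chain, missed the threshold, at 492, 526 and 385 FPKM in ADSCs and 264, 668 and 731 in keratinocytes (adjusted p = 0.87). H2-DMb1, which loads class II molecules, was at 4.77, 7.87 and 8.39 FPKM in ADSCs and 1.53, 1.49 and 2.19 in keratinocytes, 4.03-fold lower (adjusted p = 0.00103). Immune markers summed to 7.995, 72.06 and 12.58 FPKM in the ADSC cultures of mice 1, 2 and 3, and their part in the class II result was not tested.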

How the data were processed

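RNA was extracted with a Zymo Quick-RNA kit and sequenced from Illumina TruSeq RNA libraries, per the labels' protocols. All 12 libraries share 1 table of FPKM values that the authors deposited. The submitters' processing notes name FastQC 0.11.5, STAR 2.5.1b and the mm10 genome, as well as HOMER without a version. HOMER counted exon reads in the transcript's direction, condensed each gene to 1 entry and scaled the result to FPKM, per the file headers. The labels used here do not say whether the kit marks strand, so reads of overlapping or antisense genes, and of near-identical copies, may be shared. A further 3 columns of per-sample values have names that match none of the labels and were left out. Read totals were recovered from the low values, since 1 read is worth a fixed FPKM for a gene's length: with a tolerance of 0.15 reads, 100% of them came out whole. Low genes rest on few reads.

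Genes that reached 1 FPKM in 3 or more of 12 libraries entered a limma fit (version 3.58.1, R 4.3.3) of log2(FPKM + 1) values: 4 group means over 12 libraries, variances moderated towards a trend with mean level, the two-sided contrast of keratinocytes against ADSCs, and Benjamini-Hochberg adjustment over all genes kept. No library was dropped or imputed. The fit was tested on simulated data. The members and the 53 gene lists were chosen with earlier results of these data known, so counts over a list are descriptions and no list was tested as a set. The lists hold 1852 genes of the table, of which 1302 were tested; 3 symbols were not matched and 2 were matched by an older symbol. Genes were named by rule. It took the 10 largest rises and 10 largest falls among called genes outside keratins and collagens with no overlap between groups, and the 2 largest rises and 2 largest falls of each list, all with a mean of at least 5 FPKM in the higher group. Where a list had no call, its member with the highest mean was named. In lists with roles any member with a group mean of at least 5 FPKM could be named, and Krt14, Cdh1 and Pdgfra checked the labels. Ap1m2, Pard6g, Llgl2, Sytl1, Esrp2, Mbnl2, S100a9, Klf4, Tspan9, Cd63 and Shmt2 were chosen after their values were seen. Some genes and 1 list that the rule would name are not reported here.

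A mouse number marks the same animal in both groups, per the labels. Deviations from the group means correlated between cultures of the same mouse at r = 0.210, 0.184 and 0.155 for mice 1, 2 and 3, and between different mice at -0.228 to 0.139. The animal was left out of the main model, and a fit with it as a replicate block was an alternative, beside another pseudocount, other filters, other scalings, the 6 libraries alone, a minimum difference and leaving out each library. With 1 culture per animal and kind, p-values measure the spread between these cultures. Promoter windows came from a RefSeq table (GRCm38.p6) that held 30 of the 46 called trafficking and splicing genes.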

Additional observations from a re-analysis of the deposited data

How the results depend on the processing

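Of the 212 called genes named in the text, 211 kept their call and direction under each of the 14 alternatives that could be fitted to them. Lgals8 did not. Among all 522 called genes that the rule named or allowed, 442 kept their call and 80 lost it under some alternative. The genes printed here were thus steadier than the rule's genes as a whole. Of the 9 genes named in the text that were not called, Ptgs2 and Klf4 were called under some alternative. A minimum log2 difference of 1 left 1816 genes higher and 1585 lower, against 4061 and 2555, because fewer genes can pass it. Leaving out single libraries gave 3287 to 3712 higher and 2240 to 2400 lower genes, and 8857 to 9476 genes whose groups did not overlap. With the replicate block 3969 genes were higher and 2537 lower, and it changed no call of a gene named in the text. In the 6 libraries alone the counts were 4840 and 2905, and 5057 and 3020 with the replicate block. A pseudocount of 0.1 gave 4123 and 2526, no filter 4370 and 3568, and a filter at 5 FPKM 3383 and 1793. Median scaling gave 2860 and 3255 and quantile normalization 3178 and 3111. The cause of the different split under these scalings was not tested. They move the median log2 difference over all genes from 0.18 to -0.01 and 0.04, so differences of that size cannot be read as a direction. Genes near 0 FPKM rest on few reads. The design holds 3 animals, and it cannot separate cell type from tissue and medium.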

Other observations

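Tetraspanins, membrane proteins that organise adhesion receptors, held 6 higher and 8 lower calls among 20 tested members. Tspan4, found on the migration tracks of moving cells, was at 125, 123 and 138 FPKM in ADSCs and 3.17, 3.78 and 3.48 in keratinocytes (log2 difference -4.85, SE 0.13, adjusted p = 3.01e-10). Cd9 was 5.26-fold higher (459 ± 40.4 FPKM in keratinocytes against 87.2 ± 13.3 in ADSCs; log2 difference 2.39, SE 0.18, adjusted p = 1e-06), and Tspan9 was 4.25-fold higher (83.5 ± 12.9 FPKM in keratinocytes against 19.7 ± 2.2 in ADSCs). Cd63, of late endosomes and exosomes, was 2.1-fold lower (222 ± 3.54 FPKM in ADSCs and 105 ± 18.5 in keratinocytes; adjusted p = 0.000135). Cd53, known from leukocytes, was at 11, 8.91 and 4.62 FPKM in ADSCs and 0.119, 0.21 and 0.131 in keratinocytes, and the immune marker sum of these ADSC cultures was 7.995, 72.06 and 12.58 FPKM. The part of such cells in this difference was not tested. Of the zinc importers, Slc39a14 was 4.6-fold lower (20.7 ± 4.83 FPKM in ADSCs and 4.5 ± 0.122 in keratinocytes) and Slc39a13, whose loss impairs connective tissue, 2.28-fold lower (30 ± 3.41 FPKM in ADSCs and 13.2 ± 0.502 in keratinocytes). Over the 20 tested zinc genes 4 were higher and 7 lower, and 4 were lower when any 1 of the 6 libraries was left out, whichever it was.

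Of 23 tested genes of serine, glycine and folate metabolism 17 were not called. Among the called ones, the cytosolic and the mitochondrial enzyme of 1 pair differed in opposite directions. The cytosolic Aldh1l1, which oxidises 10-formyl-tetrahydrofolate, was at 32, 28.2 and 31.8 FPKM in keratinocytes and 9.15, 10.6 and 6.69 in ADSCs, 3.48-fold higher (log2 difference 1.71, SE 0.30, adjusted p = 0.000583), and its mitochondrial relative Aldh1l2 was at 33.9, 34.4 and 40.2 FPKM in ADSCs and 8.55, 12.8 and 13.2 in keratinocytes, 3.15-fold lower (log2 difference -1.59, SE 0.29, adjusted p = 0.000804). Shmt1, the cytosolic serine hydroxymethyltransferase, was 6.99-fold higher (21.1 ± 1.05 FPKM in keratinocytes against 3.02 ± 0.634 in ADSCs; adjusted p = 8.43e-05), whereas the mitochondrial Shmt2 missed the threshold (76.7 ± 14.1 FPKM in ADSCs and 80 ± 17.3 in keratinocytes; adjusted p = 0.86). In that list of 23 genes 3 were higher and 3 lower (26.1% called against 53.5% of all genes), against 9 and 7 with the replicate block in the 6 libraries. Of 21 citric acid cycle enzymes 2 were called, both higher, and neither call held under median scaling or without keratinocyte replicate 3. No enzyme of that cycle was called lower with limma (1 at an unadjusted p under 0.05), whereas 2 were under either scaling.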
